A study of Citrus reticulata and Citrus x clementina and Citrus x paradisi with 16 samples.

Results

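Among the 20373 loci assembled from ovules of a mandarin pair, 2 were described here, a cysteine proteinase 15A-like locus (XLOC_008753, reference gene Ciclev10031865m.g) and a WRKY 2-like locus (XLOC_002146, Ciclev10017173m.g). Both names are those the study assigned. They were chosen by reference gene because earlier results of these data had shown them expressed in Ponkan and nearly silent in clementine, so that contrast is given below as a description, without a test. The mandarin pair was the polyembryonic Ponkan ‘Huagan No.2’ (PK, Citrus reticulata) and the monoembryonic clementine ‘Nour’ (CM, C. clementina), sampled at the stage when nucellar embryo initiation cells emerge in PK (NEI, 7 days after flowering) and just before it (pre-NEI, 3 days). A further pair, polyembryonic grapefruit ‘Cocktail’ (GF) and monoembryonic pummelo ‘Huanong red’ (PU), was sampled 3 days after flowering (NEI) and at anthesis (pre-NEI, 0 days). In CM and PU, which form no such cells, the stage names mark only the matching days. Flowers of all 4 cultivars were pollinated by hand with trifoliate orange pollen, and each group had 2 libraries of whole ovules, collected in consecutive years. Each cultivar is 1 genotype, so cultivar and embryony type cannot be told apart.

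Nucellar embryony is the formation of embryos from the maternal nucellar tissue around the embryo sac, which gives seeds with several embryos genetically like the mother. Cysteine proteinases of the papain type are made as inactive precursors and degrade proteins in the vacuole, in vesicles or outside the cell, and in plants they take part in protein turnover, senescence and programmed cell death. WRKY proteins are transcription factors that bind W-box elements in promoters and are best known from stress and defence responses. In Arabidopsis, WRKY2 acts in the first asymmetric division of the zygote, but it is not known from these data whether the citrus locus has that role.

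The locus totals ran between 17854403 and 24912877 counts in the 8 mandarin libraries. Levels are given in CPM, the count scaled to the depth of its library with trimmed mean of M-values (TMM) factors, and 3 counts in a library correspond to 0.131 to 0.204 CPM. The small subunit of Rubisco (XLOC_014803), a photosynthesis protein that served as the only available marker of green tissue, had 40.0 and 106 CPM in PK and 110 and 129 CPM in CM at NEI. At pre-NEI it had 18.7 and 51.6 CPM in PK, against 146 and 308 CPM in CM, a log2 fold change of -2.69 ± 0.68 (SE, edgeR quasi-likelihood adjusted p 0.0781). The adjusted p was 0.00624 when the fit had a replicate block, 0.00116 by DESeq2 and 0.00549 with edgeR's exact test. The part of green tissue in the results below was not tested, and ovule marker genes were not analysed here. In whole ovules, fewer cells of a type and less RNA per cell cannot be told apart.

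The cysteine proteinase locus lay on the plus strand of clementine scaffold 4, from 6959289 to 6961933, and had 1 assembled isoform of 1420 bp. At NEI it had 738 and 102 counts in PK libraries 1 and 2, against 1 and 0 counts in CM. At pre-NEI it had 213 and 289 counts in PK, against 2 and 0 counts in CM. Every PK library was thus above 100 counts, and every CM library was below the 3 counts taken as the limit of detection.

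As CPM, the cysteine proteinase locus averaged 23.7 ± 26.5 in PK and 0.0340 ± 0.0480 in CM at NEI, and 11.4 ± 2.99 in PK and 0.0555 ± 0.0785 in CM at pre-NEI (SD, n = 2 each). The ratio of PK to CM, from pooled counts, was 803 at NEI (95% exact binomial interval of counting error 144 to 31770, from 1 count in CM) and 232 at pre-NEI (63.9 to 1920, from 2 counts). These intervals cover counting error only. By the FPKM that the authors computed for each group, the locus had 17.8 in PK at NEI and was listed at 0 in CM, and had 8.69 in PK and 0.0415 in CM at pre-NEI, a ratio of 209.

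The WRKY 2-like locus lay on the plus strand of scaffold 2, from 220480 to 222717, with 10 assembled isoforms of 367 to 1049 bp, all listed with the same span. The isoform with the largest total (1021 bp) stood for the locus. At NEI it had 225 and 130 counts in PK, against 3 and 1 counts in CM. At pre-NEI it had 184 and 212 counts in PK, against 2 and 4 counts in CM. Every PK library held at least 130 counts, and 1 CM library exceeded 3 counts, with 4.

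In CPM the WRKY 2-like locus averaged 9.64 ± 4.69 in PK and 0.125 ± 0.111 in CM at NEI, and 9.00 ± 1.34 in PK and 0.143 ± 0.0456 in CM at pre-NEI (SD, n = 2 each). The ratio of PK to CM was 84.9 at NEI (32.9 to 313, from 4 counts in CM) and 61.0 at pre-NEI (27.8 to 167, from 6 counts). By the authors' FPKM summed over isoforms, the WRKY 2-like locus had 44.3 in PK and 0.399 in CM at NEI, a ratio of 111, and 44.4 in PK and 0.403 in CM at pre-NEI, a ratio of 110. The reads of both cultivars were aligned to a published clementine genome, and these loci were near 0 in CM, which is also a clementine. Whether that genome came from ‘Nour’ is not given in the sources used here.

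**Figure D1:**
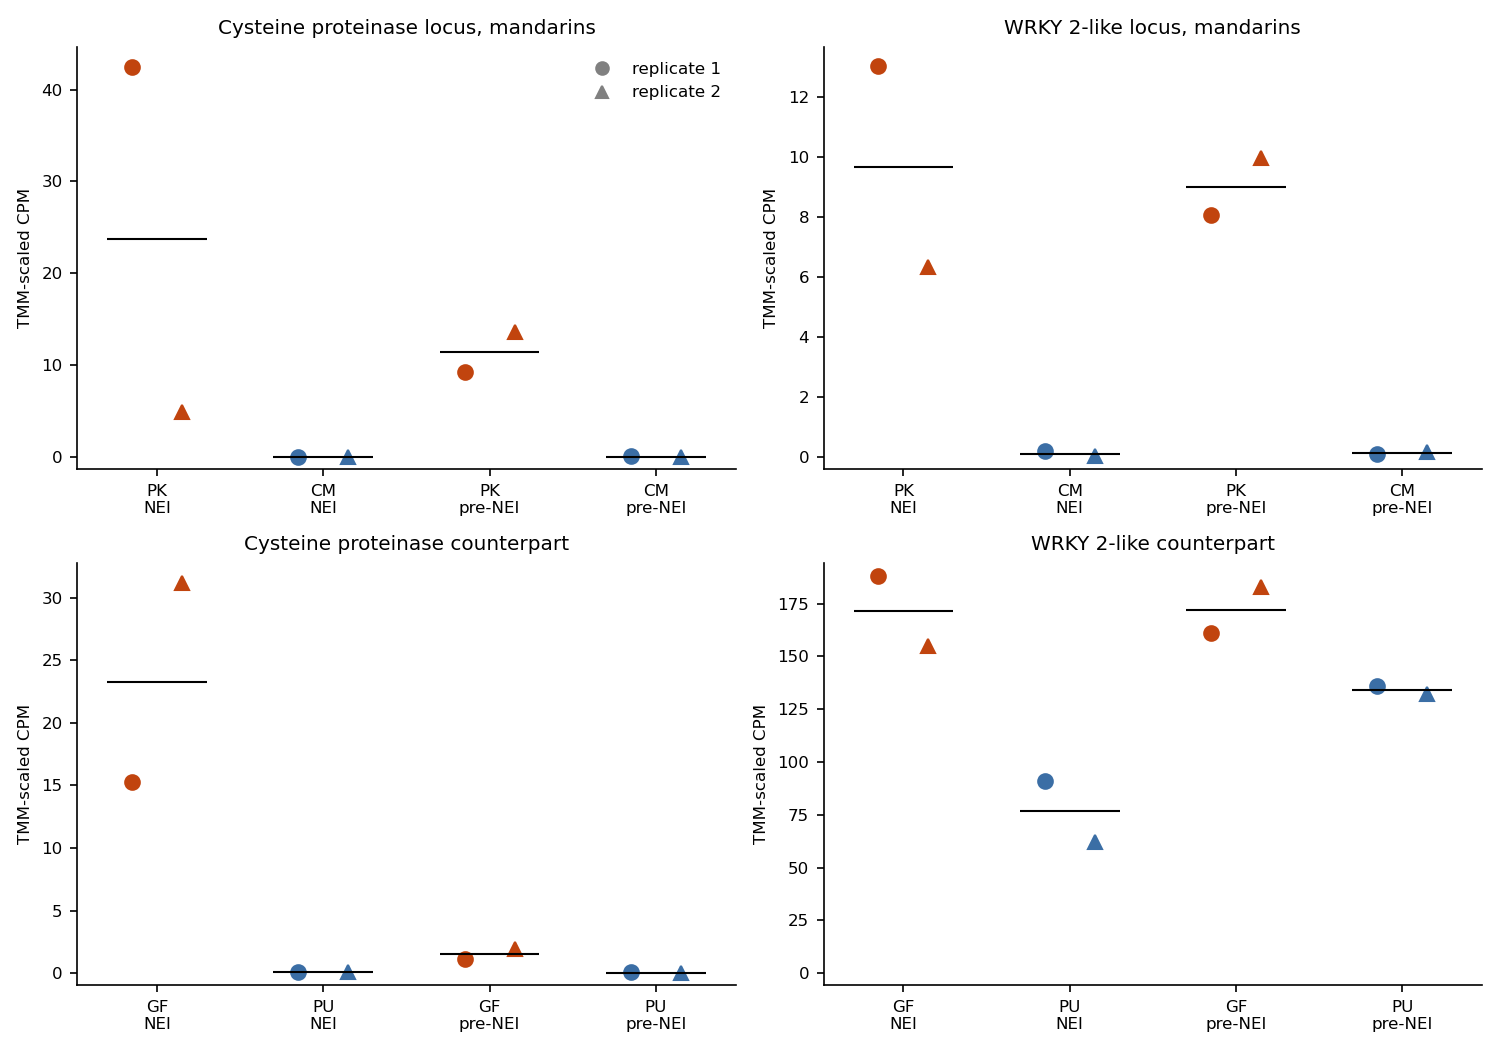
TMM-scaled CPM of the 2 mandarin loci (top) and of their sweet orange counterparts in grapefruit and pummelo (bottom) in each library, by cultivar and stage, with circles for replicate 1, triangles for replicate 2 and a bar for the group mean. All CM points lie at or near 0 in both top panels, and the PK NEI libraries of the cysteine proteinase locus lie at 42.5 and 4.96.

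Compared per length, the order of the 2 loci in PK depended on the measure. From the counted isoforms, the cysteine proteinase locus had 8.06 ± 2.11 CPM per kb and the WRKY 2-like locus 8.82 ± 1.31 CPM per kb in PK at pre-NEI (SD, n = 2 each). At NEI they had 16.7 ± 18.7 and 9.44 ± 4.59 CPM per kb, so at both stages the loci differed by less than the spread between libraries. In the authors' FPKM summed over isoforms, the WRKY 2-like locus had 44.3 at NEI and 44.4 at pre-NEI in PK, above 81.8% and 83.0% of loci, whereas the cysteine proteinase locus was above 63.5% and 48.6% of loci.

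Of the 10 WRKY 2-like isoforms, 3 of the shorter ones made up most of that FPKM. The isoforms of 656 bp (TCONS_00023318), 396 bp (TCONS_00019041) and 367 bp (TCONS_00017311) had 8.81, 17.4 and 9.54 FPKM in PK at NEI and 12.4, 13.7 and 12.7 FPKM at pre-NEI, 80.7% and 87.5% of the sum. The longest isoforms of 1049 and 1021 bp had 1.21 and 2.59 FPKM in PK at NEI and 0.512 and 1.76 FPKM at pre-NEI. The order was the opposite in counts, since the 1021 bp isoform had 130 to 225 counts in the PK libraries and the 367 bp isoform 22 to 52.

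All isoforms of the WRKY 2-like locus were near 0 in CM. No isoform had over 6 counts in any CM library, whereas 6 of the 10 had over 100 counts in every PK library, from 103 to 225. A read that overlaps several isoforms appears to have been counted for each, as the median isoform of a locus had 0.818 times the count of the largest. Summed over isoforms, the locus would have had 1403 and 891 counts in PK at NEI, against 21 and 7 counts in CM, and 1142 and 1447 counts in PK at pre-NEI, against 9 and 27 counts in CM.

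The isoforms were also set against the one with the largest total, of 1021 bp. The 367 bp isoform had 9.78% and 23.8% of the count of the 1021 bp isoform in PK libraries 1 and 2 at NEI, and 13.0% and 24.5% at pre-NEI. The 999 bp isoform (TCONS_00023316) had 43.1% and 59.2% at NEI, and 40.8% and 59.9% at pre-NEI. For 8 of the 10 isoforms, all but the longest pair, both PK libraries of replicate 2 exceeded both of replicate 1. This is given without a test, since the isoforms share reads, and the difference between the collections of each year was not examined further.

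**Figure D2:**
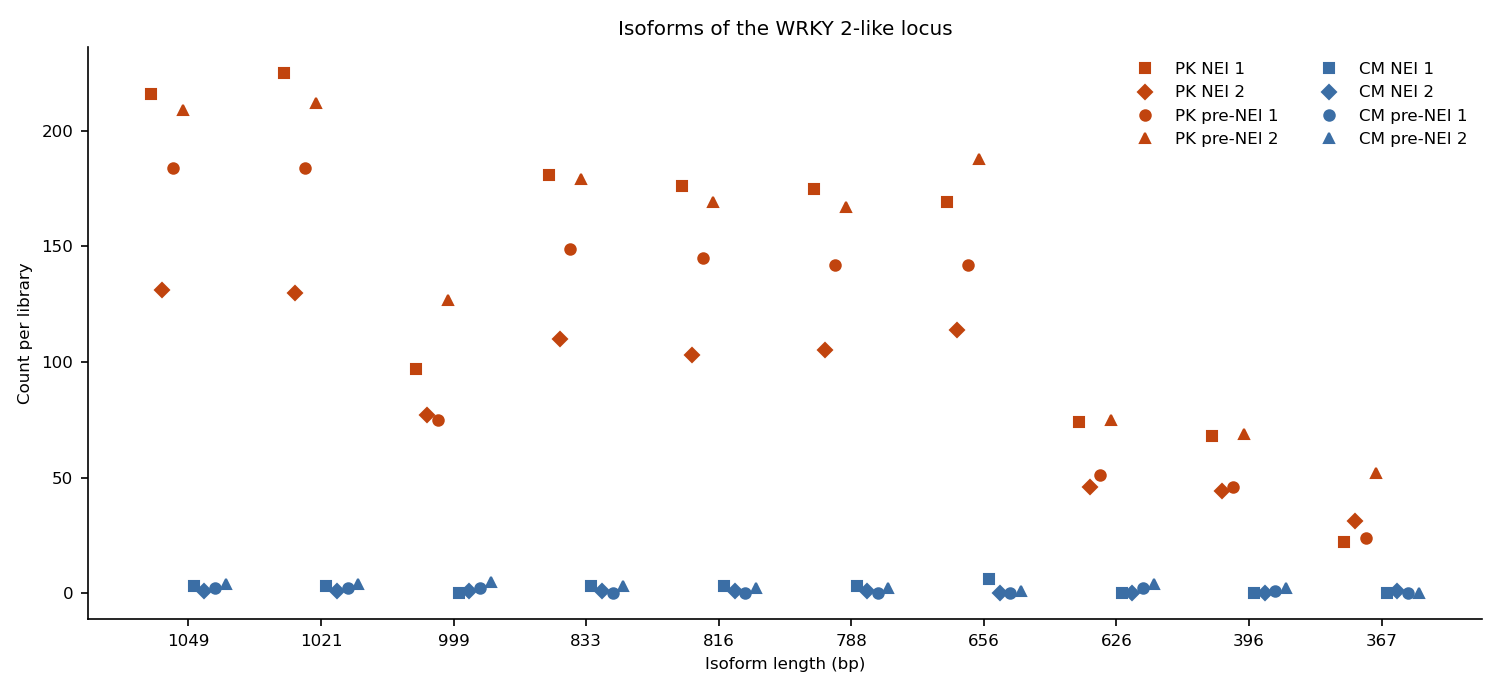
Counts per library of the 10 isoforms of the WRKY 2-like locus, ordered by length in bp, with PK in red and CM in blue and a marker for each stage and replicate. No CM point exceeds 6 counts, and in PK the shortest isoform holds 22 to 52 counts against 130 to 225 for the isoform of 1021 bp.

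The stage comparison was not used to choose the loci and could be tested. The cysteine proteinase locus had 42.5 and 4.96 CPM in PK at NEI, against 9.33 and 13.6 CPM at pre-NEI. The NEI libraries differed 8.56-fold between themselves and enclosed both pre-NEI libraries, so the groups overlapped. The log2 fold change of NEI over pre-NEI in PK was 1.05 ± 1.00 (SE, edgeR quasi-likelihood adjusted p 0.995). Without PK NEI replicate 1 it was -1.20, without PK NEI replicate 2 it was 1.89, and in the fit with a replicate block it was 0.27, so that the library at 42.5 CPM set the direction. Rubisco small subunit ran the other way in the same NEI libraries (40.0 and 106 CPM). In the PK pre-NEI libraries it ran the same way as the locus, with 18.7 and 51.6 CPM. The part of green tissue in the difference was not tested.

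The WRKY 2-like locus had 13.0 and 6.33 CPM in PK at NEI, against 8.06 and 9.94 CPM at pre-NEI, and again the NEI libraries enclosed the pre-NEI ones. Its log2 fold change was 0.10 ± 0.60 (edgeR adjusted p 1), and it was -0.51 without PK NEI replicate 1, 0.53 without PK NEI replicate 2, -0.04 without PK pre-NEI replicate 1 and 0.26 without PK pre-NEI replicate 2. Among the PK libraries, both loci were highest in NEI replicate 1 and lowest in NEI replicate 2. In CM, where both loci were at or near the floor, no change could be detected at this depth. The quasi-likelihood test called 0 of 18749 loci between NEI and pre-NEI in PK (0%), with 692 loci at an unadjusted p under 0.05. DESeq2 called 15 loci and edgeR's exact test 9. Here and below, a call needed an adjusted p under 0.05 together with a log2 fold change of 1 or more in size. The interaction of stage and cultivar was 1.76 ± 2.60 for the cysteine proteinase locus and 0.41 ± 1.06 for the WRKY 2-like locus. It shares the contrast of PK with CM by which the loci were chosen, and CM was near the floor. The interaction is therefore given as a description, without a test.

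**Figure D3:**
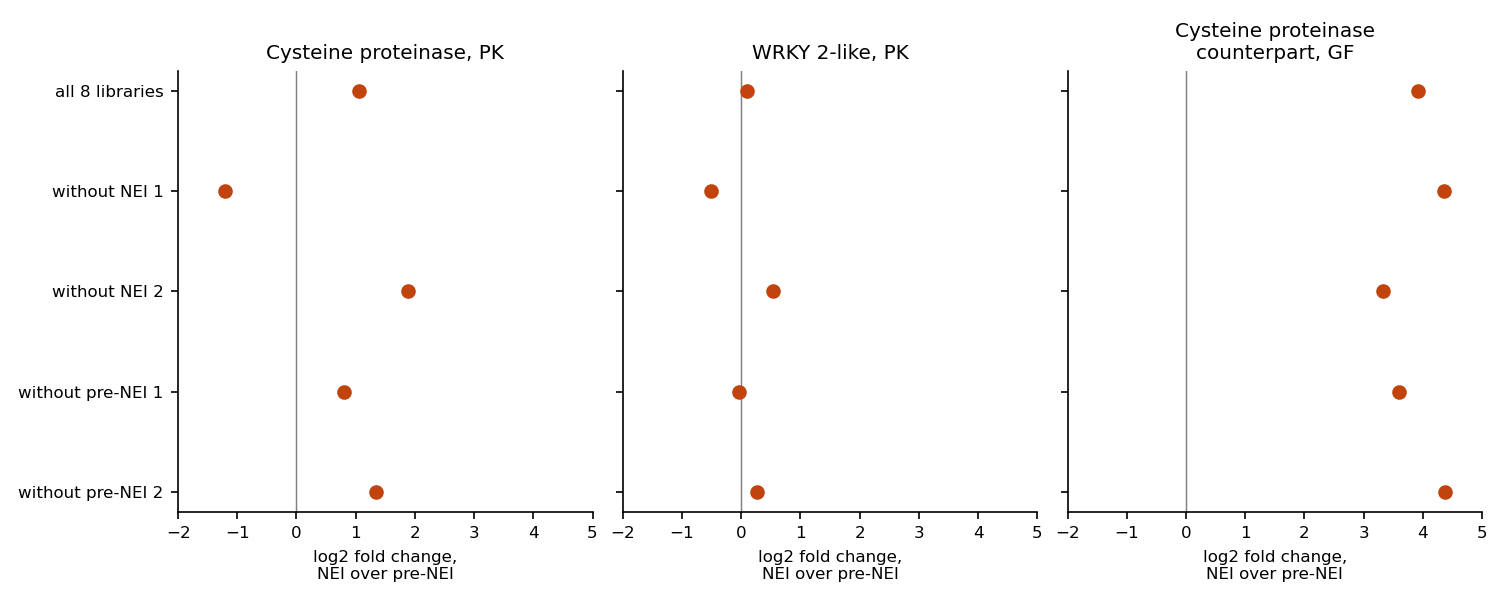
Log2 fold change of NEI over pre-NEI for the 2 mandarin loci in PK and for the cysteine proteinase counterpart in GF, with all 8 libraries of the pair and with each library of PK or GF left out in turn. The cysteine proteinase locus in PK changes sign, at -1.20, without NEI replicate 1, whereas the counterpart in GF stays between 3.32 and 4.38.

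The loci around both genes show whether the contrast between PK and CM extends along the scaffold. Within 100 kb on each side there were 39 loci, 15 around the cysteine proteinase locus and 24 around the WRKY 2-like locus, of which 38 passed the filter on low counts. No other locus overlapped either gene. At NEI, 0 of these 38 were called between PK and CM (1.64% of all 18749 loci were), with 1 at an unadjusted p under 0.05. DESeq2 called 1 and the edgeR exact test 1. Over all 18749 loci at NEI, 2258 had an unadjusted p under 0.05, DESeq2 called 1085 and the exact test 870. At pre-NEI 2 of 38 were called, both higher in PK (5.26%, against 3.60% of all loci called in either direction and 1.12% higher in PK). The median log2 fold change of the neighbours was 0.11 at NEI and 0.23 at pre-NEI, beside 0.02 and 0.00 over all loci tested. The fit with a replicate block called 1 neighbour at NEI and 4 at pre-NEI, beside 625 and 2006 of all 18749 loci.

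Around the cysteine proteinase locus the quasi-likelihood test called none of 15 neighbours at either stage, with 0 at an unadjusted p under 0.05 at NEI and 3 at pre-NEI. Over all 18749 loci, 2258 had such a p at NEI and 4184 at pre-NEI. At pre-NEI DESeq2 called XLOC_008754, XLOC_009653 and XLOC_009657, beside 2428 of all loci. The edgeR exact test called XLOC_008754 and XLOC_009657, beside 1796 of all loci. Their log2 fold changes in the main fit were 2.27 (XLOC_008754), 1.81 (XLOC_009653) and 1.71 (XLOC_009657). The nearest on one side (XLOC_009656, Ciclev10033705m.g, on the minus strand, 5.18 kb away) had log2 fold changes of -0.22 ± 0.42 at NEI and -0.52 ± 0.42 at pre-NEI. The nearest on the other side (XLOC_008754, Ciclev10031674m.g, 6966555 to 6970194, 4.62 kb downstream on the same strand) had 183 and 622 counts in PK, against 112 and 374 counts in CM, at NEI, and 456 and 430 counts in PK, against 83 and 85 counts in CM, at pre-NEI. Its groups did not overlap at pre-NEI, where the log2 fold change was 2.27 ± 0.61 (edgeR adjusted p 0.0917, and 0.0344 with the block, 0.00657 by DESeq2 and 0.018 with edgeR's exact test), and at NEI it was 0.71 ± 0.58 (adjusted p 0.713). In CM, unlike the cysteine proteinase locus, this neighbour was expressed in every library.

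Around the WRKY 2-like locus 2 of 23 tested neighbours were called at pre-NEI and 0 at NEI. The nearest upstream locus on the same strand (XLOC_002145, Ciclev10015549m.g, 213285 to 217262, 3.22 kb away) had 1519 and 1506 counts in PK, against 436 and 660 counts in CM, at NEI, and 1731 and 1563 counts in PK, against 352 and 241 counts in CM, at pre-NEI. At both stages the lowest PK library lay above the highest CM library. Its log2 fold change was 2.31 ± 0.35 at pre-NEI (edgeR adjusted p 0.0218) and 1.42 ± 0.34 at NEI (adjusted p 0.115, and 0.0495 with the block, 0.0158 by DESeq2 and 0.0399 with edgeR's exact test). The pre-NEI call was lost when pre-NEI replicate 1 of PK (adjusted p 0.147), replicate 2 of PK (0.137) or replicate 2 of CM (0.124) was left out, with log2 fold changes of 1.96 to 2.33.

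The second called neighbour (XLOC_002151, Ciclev10015338m.g, 290715 to 294123, 68.0 kb away) had 515 and 1490 counts in PK, against 270 and 1062 counts in CM, at NEI, and 1713 and 1924 counts in PK, against 202 and 108 counts in CM, at pre-NEI. The groups overlapped at NEI and were apart at pre-NEI. The log2 fold change was 3.37 ± 0.69 at pre-NEI (edgeR adjusted p 0.0467) and 0.59 ± 0.63 at NEI (adjusted p 0.788), and the interaction of stage and cultivar was -2.78 ± 0.91 (unadjusted p 0.017, adjusted p 0.521). The pre-NEI call was lost without any one of the 4 pre-NEI libraries (adjusted p 0.0909 to 0.304), without CM NEI replicate 1 (0.0522) or without CM NEI replicate 2 (0.0539). The functions of these neighbours are not given in the sources used here.

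The nearest locus downstream of the WRKY 2-like locus (XLOC_002147, Ciclev10014640m.g, 1.90 kb away) was far more abundant and was expressed in both cultivars. It had 7708 and 9572 counts in PK, against 9167 and 14551 counts in CM, at NEI, and 10388 and 11510 counts in PK, against 7450 and 9907 counts in CM, at pre-NEI. Its log2 fold changes were -0.51 ± 0.32 at NEI and 0.23 ± 0.32 at pre-NEI, neither called. The near absence from CM was thus seen at the 2 chosen loci and at none of the neighbours named above, which all held at least 83 counts in every CM library.

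**Figure D4:**
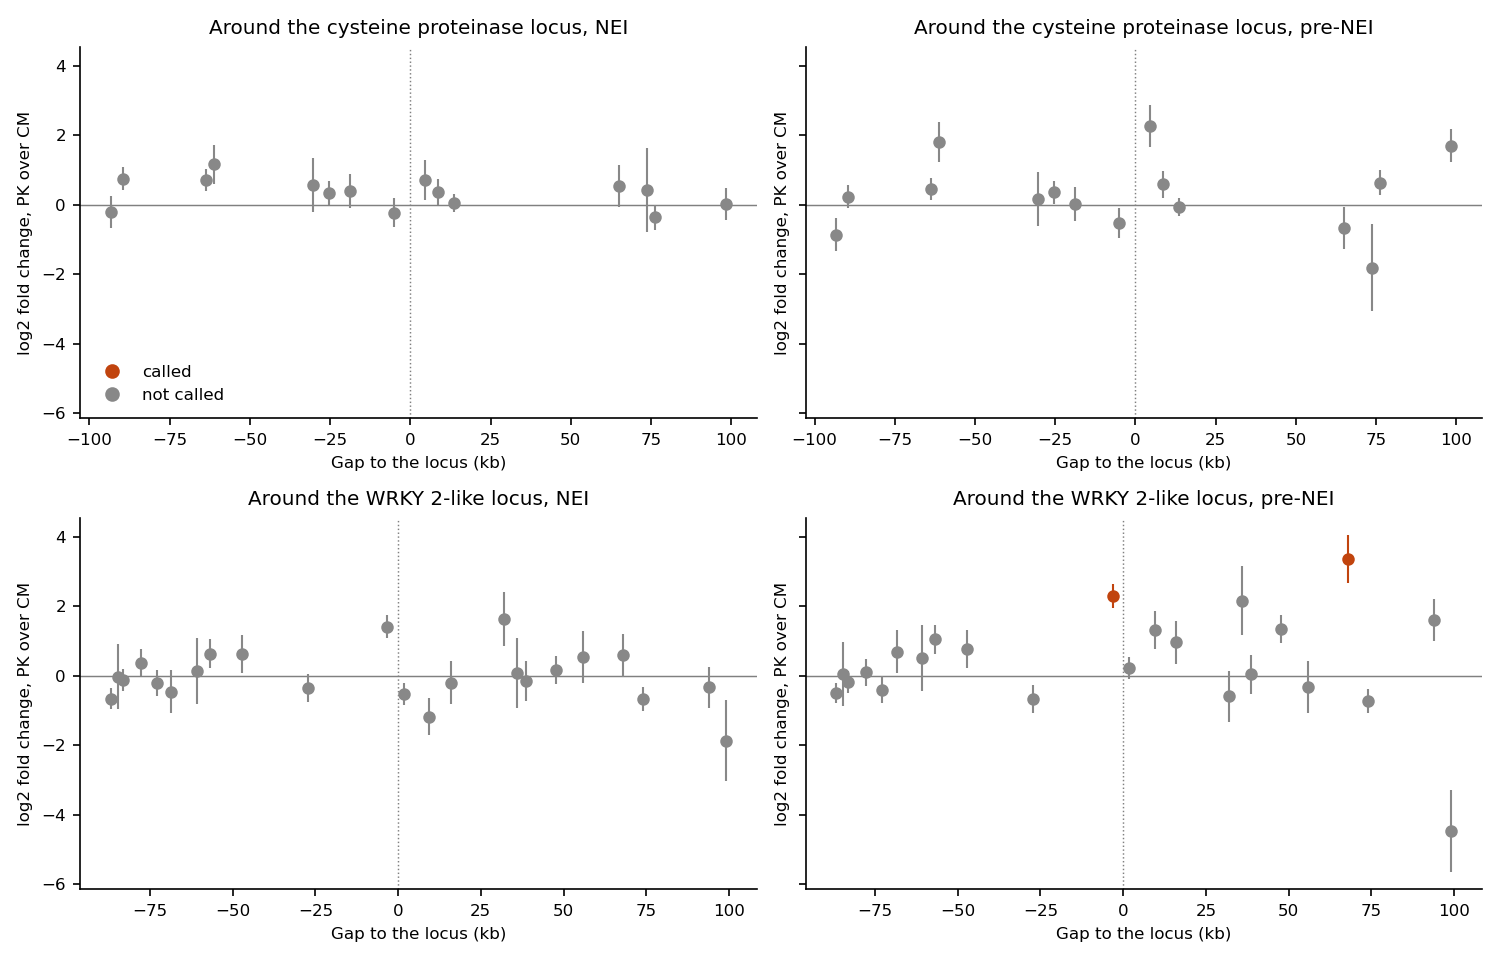
Log2 fold change of PK over CM (points, with SE as bars) for the tested loci within 100 kb of the cysteine proteinase locus (top) and the WRKY 2-like locus (bottom), by the gap to that locus in kb, at NEI (left) and pre-NEI (right). The 2 called loci, both at pre-NEI around the WRKY 2-like locus, are in red at 2.31 and 3.37.

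The loci whose levels over the 8 mandarin libraries were most like those of the 2 genes were higher in every PK library than in every CM library, as the genes themselves are. By Pearson's r of log2(CPM + 1), the 5 annotated loci most like the cysteine proteinase locus were XLOC_002717 (Ciclev10015681m.g, r = 0.992), XLOC_008595 (Ciclev10032767m.g, 0.990), XLOC_006346 (Ciclev10021618m.g and Ciclev10024012m.g, 0.987), XLOC_007049 (Ciclev10023905m.g, 0.985) and the WRKY 2-like locus itself (0.973). With loci that have no reference gene included, the WRKY 2-like locus ranked 14 by likeness to the cysteine proteinase locus, and the cysteine proteinase locus ranked 65 by likeness to the WRKY 2-like locus. Most like the WRKY 2-like locus were XLOC_017358 (Ciclev10029645m.g and Ciclev10030153m.g, 0.998), XLOC_006595 (Ciclev10021259m.g, 0.995), XLOC_007049 (0.993), XLOC_008963 (Ciclev10033783m.g and Ciclev10033999m.g, 0.987) and XLOC_009362 (Ciclev10031159m.g, 0.987). The difference between the cultivars makes up most of such an r over 8 libraries, and the same libraries and depths underlie every value.

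None of these loci lay within 100 kb of either gene. XLOC_002717 had 72 and 34 counts in PK at NEI and 40 and 41 at pre-NEI, and XLOC_007049 had 43 and 28 counts in PK at NEI and 31 and 34 at pre-NEI. Both were at 0 in all 4 CM libraries. XLOC_006595, in contrast, had 128 and 109 CPM in PK, against 42.6 and 37.0 CPM in CM, at NEI, and 122 and 130 CPM in PK, against 36.3 and 39.3 CPM in CM, at pre-NEI. The pattern was therefore shared by loci that were silent in CM and by loci that were only lower there.

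Near absence from 1 cultivar was not particular to these genes. In PK, 47 loci had at least 1 CPM in every library and at most 3 counts over the 4 CM libraries, and 10 of them had a reference gene. By mean CPM in PK the cysteine proteinase locus ranked 4 among the 47 and 1 among the 10. With up to 10 counts allowed in CM, 75 loci met the limits, 15 of them with a reference gene, and the WRKY 2-like locus ranked 8 and 2 among these. This limit equals the 10 counts of the WRKY 2-like locus itself over the CM libraries. The ranks are descriptions, since both genes were chosen by these levels. Near absence from PK was more common, with 138 loci expressed in every CM library and at most 3 counts over the PK libraries, of which 42 had a reference gene. Reads of PK as well as CM were aligned to a clementine genome with up to 2 mismatches. The part of this mapping in the unequal numbers was not tested.

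The other listed cysteine proteases were expressed in both cultivars. No table of gene names was available, so the list held the 2 mandarin loci that the study's target tables name as cysteine proteases with a granulin repeat, and no mandarin WRKY locus other than the one described. Neither was called between PK and CM at either stage by the quasi-likelihood test (0 of 2, beside 3.60% and 1.64% of all loci called at pre-NEI and NEI). At an unadjusted p under 0.05 there were 1 and 0, beside 4184 and 2258 of all 18749 loci. XLOC_012594 (Ciclev10001054m.g) was among the most abundant loci, with 2846 and 4159 CPM in PK, against 2295 and 2058 CPM in CM, at NEI, and 2139 and 2751 CPM in PK, against 2014 and 2716 CPM in CM, at pre-NEI. Its log2 fold changes were 0.69 ± 0.49 at NEI and 0.05 ± 0.48 at pre-NEI.

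XLOC_003119 (Ciclev10015066m.g) had 26.7 and 17.2 CPM in PK, against 15.4 and 18.0 CPM in CM, at NEI, and 38.5 and 48.4 CPM in PK, against 20.4 and 6.72 CPM in CM, at pre-NEI. The groups were apart only at pre-NEI. The log2 fold change was 0.39 ± 0.52 at NEI (edgeR adjusted p 0.832) and 1.68 ± 0.53 at pre-NEI (adjusted p 0.129, and 0.0412 by DESeq2). Both proteases were well above the floor in every CM library.

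The study paired each gene with a sweet orange counterpart in a list of genes differing in both cultivar pairs. The pairing therefore used the contrast of GF with PU in these same libraries, so that contrast is given for the counterparts as a description, without a test. Over this pair, 21.7% of 19943 loci tested were called at NEI and 6.57% at pre-NEI.

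The cysteine proteinase counterpart (XLOC_015091, Cs7g24410, minus strand of sweet orange chromosome 7, 24166857 to 24169802, 1 isoform of 1272 bp) was nearly silent in the monoembryonic cultivar here as well. It had 255 and 401 counts in GF, against 2 and 1 counts in PU, at NEI, and 20 and 61 counts in GF, against 2 and 0 counts in PU, at pre-NEI. No PU library reached 3 counts, and the lowest GF library had 20. In pooled counts the ratio of GF to PU was 258 at NEI (95% counting interval 87.9 to 1254) and 25.1 at pre-NEI (6.74 to 211).

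The log2 fold change of GF over PU was 7.97 ± 0.88 (SE) at NEI and 4.46 ± 0.89 at pre-NEI. With each library left out in turn it lay between 7.38 and 8.33 at NEI. At pre-NEI it lay between 3.74 (without PU pre-NEI replicate 2) and 7.77 (without PU pre-NEI replicate 1, which leaves PU at 0 counts). A short unannotated locus (XLOC_015751, 24167801 to 24168026, no strand) lay inside it, with 4 and 15 counts in GF at NEI, 1 and 1 counts in GF at pre-NEI and 0 in PU, and could share reads with it.

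In GF the counterpart had 15.3 and 31.2 CPM at NEI, against 1.11 and 1.92 CPM at pre-NEI, and the groups were apart. The log2 fold change of NEI over pre-NEI was 3.92 ± 0.67 (edgeR adjusted p 0.105, and 0.0435 with the replicate block, 3.24e-07 by DESeq2 and 4.67e-05 with edgeR's exact test), a comparison added after the data were seen. It shares its GF libraries with the contrast used in the pairing, so these p-values are not independent of that choice. The fold change lay between 3.32 and 4.38 with each library left out. The interaction of stage and cultivar, which shares the contrast of GF with PU, was 3.51 ± 1.52. The stage change in PK, with 1.05 ± 1.00, came from another table and was not tested against that in GF.

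For the WRKY 2-like locus, whether the study's pairing joined the same gene of both genomes was not examined. The WRKY 2-like counterpart (XLOC_007268, Cs4g07560, plus strand of chromosome 4, 4806226 to 4811078) differed from the mandarin locus in structure and level. It had 2 isoforms, of 3134 and 3073 bp, against a longest isoform of 1049 bp at the mandarin locus, and it was expressed in both cultivars. It had 3131 and 1988 counts in GF, against 1809 and 931 counts in PU, at NEI, and 2914 and 5796 counts in GF, against 2514 and 1646 counts in PU, at pre-NEI. As CPM the values were 188 and 155 in GF, against 90.9 and 62.3 in PU, at NEI, and 161 and 183 in GF, against 136 and 132 in PU, at pre-NEI. The groups did not overlap at either stage.

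Its log2 fold change of GF over PU was 1.16 ± 0.27 (SE) at NEI and 0.36 ± 0.26 at pre-NEI. With each library left out in turn it lay between 0.89 and 1.44 at NEI and between 0.28 and 0.45 at pre-NEI. The interaction of stage and cultivar was 0.80 ± 0.37. Between NEI and pre-NEI the log2 fold change was -0.01 ± 0.26 in GF (edgeR adjusted p 0.996) and -0.81 ± 0.27 in PU (adjusted p 0.163). These stage comparisons share their libraries with the contrast used in the pairing, so the p-values are not independent of that choice.

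Of the loci next to the counterparts, those beside the cysteine proteinase counterpart were not called at either stage. XLOC_015090 (Cs7g24400, 4.54 kb away) had -0.51 ± 0.46 at NEI and 0.34 ± 0.47 at pre-NEI, and XLOC_014045 (Cs7g24430, 4.93 kb) 0.42 ± 0.30 and 0.45 ± 0.30, as log2 fold changes of GF over PU. The nearest locus upstream of the WRKY 2-like counterpart (XLOC_007267, Cs4g07550, 4.18 kb) had 121 and 119 CPM in GF, against 40.1 and 19.3 CPM in PU, at NEI, and 74.3 and 85.8 CPM in GF, against 48.2 and 30.0 CPM in PU, at pre-NEI. Its log2 fold change was 2.01 ± 0.40 at NEI (edgeR adjusted p 0.0158, lost without GF NEI replicate 1, GF NEI replicate 2 or PU NEI replicate 2, at 0.0662, 0.0574 and 0.0734) and 1.03 ± 0.39 at pre-NEI (adjusted p 0.163). The nearest locus downstream (XLOC_007997, Cs4g07570, 0.450 kb away on the minus strand) had 0.63 ± 0.20 at NEI (adjusted p 0.0584) and 0.40 ± 0.20 at pre-NEI (adjusted p 0.271).

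Of the listed cysteine protease and WRKY loci of the grapefruit and pummelo table, 1 of 4 was called between GF and PU at NEI (21.7% of all loci tested were). At pre-NEI 0 were called (6.57% of all loci), and none had an unadjusted p under 0.05 or was called by DESeq2 or the edgeR exact test. Over all 19943 loci at pre-NEI, 4726 had such a p, DESeq2 called 2619 and the exact test 2424. The called locus was a WRKY family gene (XLOC_020187, orange1.1t05133) with 16.4 and 12.8 CPM in GF, against 2.46 and 0.134 CPM in PU, at NEI, and 2.94 and 3.56 CPM in GF, against 2.82 and 1.28 CPM in PU, at pre-NEI. The groups were apart at both stages, narrowly at pre-NEI. Its log2 fold change was 3.46 ± 1.03 at NEI (edgeR adjusted p 0.0491) and 0.65 ± 0.96 at pre-NEI (adjusted p 0.715). The NEI call was lost without any one library other than PU NEI replicate 1 (adjusted p 0.0511 to 0.146, and 0.0231 without PU NEI replicate 1), and the value was 6.68 without PU NEI replicate 1 and 2.54 without PU NEI replicate 2, which had 2 counts.

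The 3 listed proteases were abundant in both cultivars and none was called. At NEI an RD21a-like protease (XLOC_006378, Cs3g23180) had 2535 and 3031 CPM in GF, against 1892 and 997 CPM in PU, with a log2 fold change of 0.94 ± 0.45 (adjusted p 0.159). An RD19a-like protease (XLOC_016113, Cs8g08320) had 0.57 ± 0.41 (adjusted p 0.335), and a further cysteine protease (XLOC_007258, Cs4g07410) had 1.1 ± 0.47 (adjusted p 0.128). At pre-NEI the values were -0.67 ± 0.45 for XLOC_006378, -0.26 ± 0.41 for XLOC_016113 and 0.57 ± 0.47 for XLOC_007258.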

How the data were processed

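Poly(A) and strand details of the libraries are not given in the sources used here. Per the labels and the methods of the study, reads were mapped with TopHat, allowing up to 2 mismatches, to the clementine genome (PK and CM) or the sweet orange genome (GF and PU), and assembled with Cufflinks (versions not given in the sources used here). The authors deposited, for each assembled transcript, a whole-number value per library, read here as a count, which the sources do not state outright, and 1 FPKM value (scaled to transcript length and depth) per group, made from its replicates together. Cuffdiff is also among the tools the labels list. The deposited tables also hold transcript lengths. The count of a locus was that of its isoform with the largest total.

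Tests used edgeR 4.0.16 (quasi-likelihood F test, TMM, R 4.3.3) on loci with at least 1 CPM in 2 or more libraries, all 8 libraries of a pair in 1 fit, with Benjamini-Hochberg adjustment over all loci tested. DESeq2 1.42.0 and the edgeR exact test were alternatives. The step was also run on simulated counts with the same fixed spread for all loci, which does not show how it performs on these libraries. CPM are scaled by TMM factors. Counting intervals are exact binomial. The replicate number was checked as a block, because replicates were collected in consecutive years (which number is which year is not stated). The shift from one replicate to the other had correlations of 0.335 to 0.51 between the 4 mandarin groups and of 0.0519 to 0.599 between those of GF and PU. For this reason, a call that the block changed at a mandarin locus described here is stated. Whether replicates differ beyond year and pooled trees is not given, so p-values measure only the spread between these libraries.

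The genes and lists were chosen with earlier results of these data known. Named loci were the 2 genes and loci overlapping them, called loci within 100 kb and the nearest tested locus on each side, the counterparts and their nearest loci, the 5 annotated loci most like each gene, and listed protease or WRKY loci that were called or among the 3 most abundant. Alternatives were other tools, scaling, filters, isoform sums, smaller fits, a 50 kb window and each library left out. No sequence was available to print.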

Additional observations from a re-analysis of the deposited data

How the results depend on the processing

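Each group had 2 libraries, so leaving out a library rests on a spread shared with the other groups. The stage change of the cysteine proteinase locus in PK lay between -1.20 and 1.89 (log2) and that of the WRKY 2-like locus between -0.51 and 0.53 with each library left out, reversed without PK NEI replicate 1 for both (-1.20 and -0.51) and without PK pre-NEI replicate 1 for the WRKY 2-like locus (-0.04), and neither was called under any alternative. With replicate number as a block they were 0.27 and 0.01. With each library left out, the cysteine proteinase counterpart had 3.74 to 7.77 at pre-NEI and 7.38 to 8.33 at NEI, and the WRKY 2-like counterpart 0.28 to 0.45 and 0.89 to 1.44. From only the 4 libraries of the comparison, the cysteine proteinase counterpart had 4.47 at pre-NEI and the WRKY 2-like counterpart 1.07 at NEI. These contrasts are given as descriptions without a threshold, since the counterparts were chosen by them. The stage change of the cysteine proteinase counterpart in GF, added after the data were seen, became called with the edgeR exact test (3.92), DESeq2 (3.93) and the replicate block (3.90), and ranged from 3.32 to 4.38 with each library left out. The cause of these differences was not tested.

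Of the neighbours, 2 were called at pre-NEI, and 5 by the edgeR exact test and from only the 4 libraries of the comparison, 7 by DESeq2, 4 with the replicate block, 1 with a minimum of 5 CPM, with isoform sums and within 50 kb, and 0 to 3 with each library left out. Over all 18749 loci at pre-NEI, the main fit called 675, the edgeR exact test 1796, DESeq2 2428 and the replicate block 2006. At NEI the number of neighbours called was 0, and 1 by the edgeR exact test, DESeq2 and the replicate block, and 0 with each library left out. Over all 18749 loci at NEI, these alternatives called 870, 1085 and 625. The count of listed mandarin proteases called at pre-NEI was 0, and 1 by DESeq2, and 0 with each library left out at both stages. Summed over isoforms, the WRKY 2-like locus averaged 1221 counts over the PK libraries, against 188 for its largest isoform, as a read appears to have been counted for each isoform it overlaps. With the block, Rubisco small subunit also passed the threshold between PK and CM at pre-NEI (-2.75, adjusted p 0.00624). It did so too by DESeq2 (-2.72, adjusted p 0.00116) and the edgeR exact test (-2.69, adjusted p 0.00549). The neighbours that the block added to the calls were XLOC_008754 and XLOC_004444 at pre-NEI and XLOC_002145 at NEI. XLOC_008754 and XLOC_002145 were higher in PK. XLOC_004444, which has no reference gene, was lower in PK at pre-NEI, with 4 and 3 counts against 37 and 117 in CM. Its log2 fold change was -4.46 ± 1.19 in the main fit. In CM the cysteine proteinase and WRKY 2-like loci were at or under about 4 counts a library, so changes there were below what the depth could show.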
